A study of Mus musculus with 3 samples.

Results

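Retinoids are vitamin A compounds that cells convert to retinoic acid, a ligand of nuclear receptors. The genes described here are 9 of the 23298 gene symbols in the series, chosen by symbol to cover the steps of retinoid handling and sensing. They were Stra6, Dhrs3, Cyp26b1, Crabp1, Crabp2, Rara, Rarb, Rarg and Rxra. The choice was made with a lower Dhrs3 level at 6 h already known, so the Dhrs3 values at 6 h are a description and support nothing by themselves. The cells were C2C12, a mouse myoblast line, given in the series title as C2C12-hN1∆ECD, a name read here as human NOTCH1 lacking its extracellular domain. Such a receptor is released from the membrane by gamma-secretase without a ligand, and DAPT inhibits that protease. There were 3 libraries of polyadenylated RNA, each the only library of its group: 1 h after washout of 10 uM DAPT, 6 h after washout, and a control labelled as without treatment. All groups share the cell line, the receptor, and a medium of DMEM with 20% FBS. The treatment label of all 3 speaks of culture in 10 uM DAPT, and whether the control was still in DAPT when it was collected is not stated. The promoter of the receptor and the number of clones in the line are likewise not stated.

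With 1 library per group there was no replicate check and no test between conditions. Levels are FPKM, which scale fragments by transcript length and by library size, each with the 95% bounds the authors deposited. Those bounds speak for the precision of a single library, not for the spread between cultures. A ratio is 1 library's FPKM over the other's, with an interval built from the widths of both bounds. For counts of genes, a gene was called when log2(FPKM + 1) differed by at least 2-fold, a scale on which scarce transcripts appear less different than their FPKM ratio. These counts were made over the 10464 genes whose FPKM averaged 1 or more. Since RNA of whole cultures was measured, fewer expressing cells and less RNA per cell cannot be told apart.

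The libraries differed in genes that Notch is known to control. Hes1, a transcriptional repressor, had 254 FPKM after 1 h and 44.8 FPKM after 6 h, with 22.5 FPKM in the control. Heyl, a related repressor, had 0.603 FPKM after 1 h and 15.5 FPKM after 6 h, against 0.316 FPKM in the control. Hey1 had 3.52 FPKM after 1 h and 23.9 FPKM after 6 h, against 1.87 FPKM in the control. Nrarp had 0.336 FPKM after 1 h and 15.1 FPKM after 6 h, against 0.362 FPKM in the control, so at 1 h it was not above the control. Of 9 myoblast markers, 6 were above 1 FPKM in every library, and their list summed to 224 FPKM after 1 h, 239 FPKM after 6 h and 173 FPKM in the control. Cdh15 alone had 41.2 FPKM after 1 h and 87.0 FPKM after 6 h, against 27.4 FPKM in the control. At 6 h Myf5, Vcam1 and Chrna1 were below the control, and Des and Itga7 were above it. Myf5 had 26.4 FPKM after 1 h and 8.51 FPKM after 6 h, against 11.4 FPKM in the control. The determination factor Myod1 was nearly absent, at 0.295 FPKM after 1 h and 0.189 FPKM in the control and listed at 0 at 6 h, and Pax7 stayed at or below 0.0109 FPKM. Among 5 endothelial and 5 macrophage markers none reached 1 FPKM in every library, with sums of at most 0.0283 and 1.67 FPKM. Cdh5, Emcn, Ptprc and Emr1 were listed at 0 throughout. The 5 fibroblast markers summed to 3.83 FPKM after 1 h, 4.20 FPKM after 6 h and 4.47 FPKM in the control, with Thy1 and Lum at 0. Markers of differentiated muscle summed to 37.3 FPKM after 1 h and 31.0 FPKM after 6 h, against 36.0 FPKM in the control, and those of adipocytes to 9.56 FPKM after 1 h and 6.59 FPKM after 6 h, against 6.95 FPKM in the control. Nearly all of each sum was 1 gene, Acta1 in the muscle list, with 35.5 FPKM after 1 h, and Fabp4 in the adipocyte list, where Plin1 and Lep were at 0. The FPKM lay above its own deposited bounds for Hes1, Fabp4 and the myoblast marker Des in every library and for Cdh15 at 1 h and 6 h. The part of these marker levels in the results was not tested.

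In the textbook account of the pathway, the membrane protein STRA6 takes up retinol, retinol dehydrogenases such as RDH10 oxidise it to retinal, and ALDH1A enzymes oxidise retinal to retinoic acid. DHRS3 works in the opposite direction, reducing retinal to retinol, and CYP26 enzymes hydroxylate retinoic acid for clearance. CRABP1 and CRABP2 bind retinoic acid in the cytoplasm, and CRABP2 passes it to retinoic acid receptors, which bind DNA as pairs of an RAR with an RXR. Dhrs3, Cyp26b1, Rarb and Stra6 are known to be induced by retinoic acid in several cell types.

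Promoter sequences are shown for the 2 members whose levels differed most from the control at 6 h and for Rarb, whose promoter holds the textbook retinoic acid response element. The sequences are from RefSeq on GRCm38.p6, a later build than the mm9 of the expression files, and run 5′ to 3′ along the gene from 250 bases before to 50 bases after an annotated start. Of the 9 genes, 8 had an entry, with 18 windows in all. Capitals in the first pair mark TGGGAA, the core letters bound by RBPJ, the DNA-binding partner of Notch, on either strand. In Rarb they mark DR5, here any pair of the hexamers AGGTCA or AGTTCA, or of their forms starting with G, which are GGGTCA or else GGTTCA, in the same direction with 5 bases between them, again on either strand.
Dhrs3, chr4:144892887-144893186, plus strand: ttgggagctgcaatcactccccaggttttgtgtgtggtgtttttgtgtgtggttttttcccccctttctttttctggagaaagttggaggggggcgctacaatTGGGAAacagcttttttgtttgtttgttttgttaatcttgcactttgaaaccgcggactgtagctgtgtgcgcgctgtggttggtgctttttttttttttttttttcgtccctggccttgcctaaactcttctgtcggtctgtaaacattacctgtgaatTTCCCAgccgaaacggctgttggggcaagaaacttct
Cyp26b1, chr6:84593761-84594060, minus strand: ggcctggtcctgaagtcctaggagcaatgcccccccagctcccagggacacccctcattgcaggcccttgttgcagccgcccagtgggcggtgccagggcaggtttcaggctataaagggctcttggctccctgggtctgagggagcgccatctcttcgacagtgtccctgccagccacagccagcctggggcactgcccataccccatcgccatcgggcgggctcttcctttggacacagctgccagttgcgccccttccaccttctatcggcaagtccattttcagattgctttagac
Rarb, chr14:16575427-16575726, minus strand: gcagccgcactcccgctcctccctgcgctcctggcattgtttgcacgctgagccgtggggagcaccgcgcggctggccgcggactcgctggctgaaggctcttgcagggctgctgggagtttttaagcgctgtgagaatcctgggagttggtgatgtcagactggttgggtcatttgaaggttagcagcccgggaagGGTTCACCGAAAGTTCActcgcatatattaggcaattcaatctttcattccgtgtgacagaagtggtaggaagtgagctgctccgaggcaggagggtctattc

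The Dhrs3 window shown, 1 of 3 listed for that gene, was the one with the most TGGGAA matches, 2, the first beginning at position -147 from the annotated start. The Cyp26b1 window held 0. TGGGAA occurred in 25.6% of 32851 promoters of the same length, and in 6 of the 18 windows of these genes, some of which overlap each other. DR5 was found in 1 of the 18 windows, that of Rarb, where it began at position -53, and in 0.0974% of all promoters. The same hexamers spaced by 1 or 2 bases (DR1 and DR2) were in 0 of the 18 windows and in 0.222% and 0.268% of all promoters. A match is a string of letters, not a shown site, and none of these windows speaks to sequence farther from the start.

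Levels of the members ran from a listed 0 for Crabp1 to those of Rarg, which 93.5% of all symbols stayed below after 1 h, 91.0% after 6 h and 93.8% in the control. In each library the order was Rarg, Rara, Rxra, Dhrs3, Cyp26b1, Crabp2, Stra6, Rarb and Crabp1. In the 1 h library the bounds of Rxra and Dhrs3 overlapped, as did those of Crabp2 and Stra6 and of Stra6 and Rarb. In the 6 h library every neighbour from Dhrs3 down to Rarb overlapped with the next. In the control Crabp2 and Stra6 alone overlapped among neighbours. All 9 members had their FPKM inside the deposited bounds in every library, and no other gene's locus in the files overlapped theirs.

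**Figure D1:**
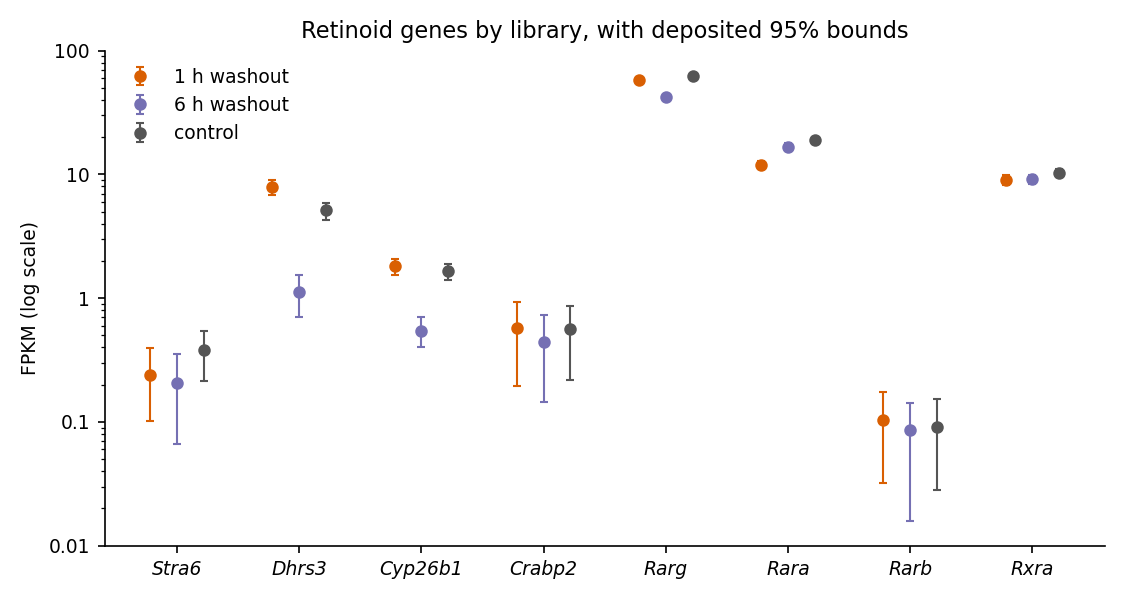
FPKM on a log axis for 8 retinoid genes in the 1 h washout, 6 h washout and control libraries, 1 point per library with the deposited 95% bounds; Crabp1, listed at 0, cannot be drawn. Dhrs3, Cyp26b1 and Rarg stand lowest in the 6 h library, at 1.11, 0.547 and 42.0 FPKM, with bounds clear of the other libraries.

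Retinol uptake was represented by Stra6, the membrane receptor for retinol-binding protein, on chromosome 9 at 57976895 to 58001804 (mm9). Its level was 0.242 FPKM after 1 h and 0.206 FPKM after 6 h, against 0.381 FPKM in the control. The bounds of all 3 libraries overlapped, and their widths were those of about 10, 8 and 20 counted fragments. The ratio to the control was 0.635 (0.277 to 1.46) at 1 h and 0.540 (0.206 to 1.41) at 6 h, and both intervals include equal levels. At this depth no difference in Stra6 was detectable.

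Dhrs3, the retinal reductase gene on chromosome 4 at 144482730 to 144517548 (mm9), had the widest range of the 5 members that averaged 1 FPKM or more. It stood at 7.92 FPKM (6.86 to 8.98) after 1 h and 1.11 FPKM (0.701 to 1.53) after 6 h, against 5.12 FPKM (4.32 to 5.92) in the control. The 3 sets of bounds lay apart from each other, with the 1 h library highest and the 6 h library lowest. At 1 h the ratio to the control was 1.55 (1.26 to 1.90), a log2 difference of 0.54 that stays under the 2-fold call. At 6 h the ratio to the control was 0.217 (0.143 to 0.331), 4.60-fold lower, with a log2 difference of -1.53. Between the washout times the ratio of 6 h to 1 h was 0.141 (0.0931 to 0.212), with a log2 difference of -2.08. The widths of the bounds were those of about 215 fragments at 1 h, 28 at 6 h and 157 in the control, so the 6 h value is the least precise. In the ranking of all 23298 symbols, 70.4% had a lower FPKM than Dhrs3 at 1 h, 56.1% at 6 h and 65.3% in the control. With a pseudocount of 5 in place of 1 the log2 difference at 6 h against the control was -0.73, which ends the 2-fold call, and a mean of at least 5 FPKM leaves Dhrs3 out.

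Cyp26b1, whose product hydroxylates retinoic acid, lies on chromosome 6 at 84521408 to 84543902 (mm9). Its level was 1.81 FPKM (1.54 to 2.08) after 1 h and 0.547 FPKM (0.400 to 0.703) after 6 h, against 1.65 FPKM (1.40 to 1.90) in the control. The 6 h library was lower than both others with bounds apart, and the 1 h and control bounds overlapped. The ratio was 1.10 (0.884 to 1.36) at 1 h against the control, 0.332 (0.240 to 0.457) at 6 h against the control and 0.302 (0.219 to 0.416) at 6 h against 1 h. On the log2(FPKM + 1) scale the 6 h difference from the control was -0.78, short of the 2-fold call, and with a pseudocount of 0.1 it was -1.44, past it. About 167, 50 and 165 fragments stood behind the values at 1 h, at 6 h and in the control. Dhrs3 and Cyp26b1 thus had their lowest value in the 6 h library, as did Rarg and, with overlapping bounds, Crabp2, Stra6 and Rarb. At 1 h the bounds were apart from the control for Dhrs3 but not for Cyp26b1, and no test of that difference was possible.

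The binding proteins were scarce. Crabp1 was listed at 0 in every library, and an exact 0 in such files can be a failed estimate. Crabp2, on chromosome 3 at 87752615 to 87757294 (mm9), had 0.574 FPKM after 1 h and 0.443 FPKM after 6 h, against 0.562 FPKM in the control. Its bounds overlapped throughout, and the ratio to the control was 1.02 (0.360 to 2.89) at 1 h and 0.787 (0.272 to 2.28) at 6 h. About 9, 9 and 11 fragments stood behind these values, and a 2-fold difference in either direction lies inside both intervals.

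Among the receptors, Rarg was the most abundant member and the RAR with most of the signal. The gene, on chromosome 15 at 102065371 to 102087914 (mm9), had 58.5 FPKM (56.4 to 61.3) after 1 h and 42.0 FPKM (39.9 to 44.3) after 6 h, against 62.6 FPKM (60.6 to 65.5) in the control. The 6 h library was the lowest with bounds apart from both others, and the 1 h and control bounds overlapped. The ratio to the control was 0.933 (0.881 to 0.988) at 1 h and 0.670 (0.628 to 0.715) at 6 h.

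Rara, a second retinoic acid receptor gene, on chromosome 11 at 98799010 to 98836256 (mm9), had bounds apart from the control at the other time. It had 11.996 FPKM (11.0 to 13.0) after 1 h and 16.7 FPKM (15.6 to 17.8) after 6 h, against 18.9 FPKM (17.7 to 20.1) in the control. The 1 h library was the lowest, with bounds apart from both others, and the 6 h and control bounds overlapped slightly. The ratio to the control was 0.636 (0.575 to 0.705) at 1 h and 0.885 (0.806 to 0.971) at 6 h, and that of 6 h to 1 h was 1.39 (1.25 to 1.54).

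Rarb, on chromosome 14 at 17263354 to 17407724 (mm9), stayed near the limit of measurement. It had 0.103 FPKM after 1 h and 0.0854 FPKM after 6 h, against 0.0911 FPKM in the control, resting on about 8, 7 and 8 fragments. The bounds overlapped in every pair, and the ratio to the control was 1.13 (0.340 to 3.78) at 1 h and 0.937 (0.233 to 3.76) at 6 h. The gene whose promoter window carries the DR5 element shown above was at most 0.103 FPKM in all 3 libraries.

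Rxra, whose product pairs with the RARs, on chromosome 2 at 27532721 to 27618839 (mm9), varied least among the same 5. It had 9.09 FPKM after 1 h and 9.21 FPKM after 6 h, against 10.3 FPKM in the control, with overlapping bounds in every pair. The ratio to the control was 0.881 (0.787 to 0.987) at 1 h and 0.894 (0.798 to 1.00) at 6 h. Summed over Rara, Rarb and Rarg, the RAR genes came to 70.6 FPKM after 1 h and 58.7 FPKM after 6 h, against 81.6 FPKM in the control. Rarg made up 82.9% of that sum at 1 h and 71.5% at 6 h, against 76.8% in the control, and Rara 17.0% at 1 h and 28.4% at 6 h, against 23.1% in the control. Rarb was at most 0.146%.

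**Figure D2:**
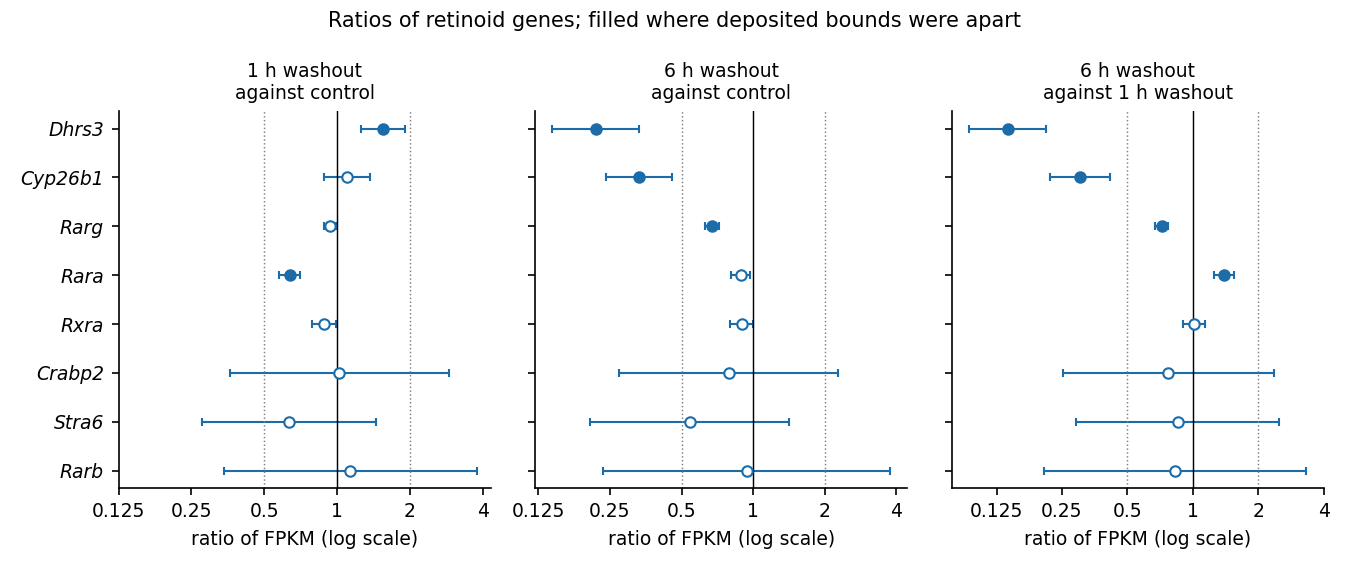
Ratio of FPKM on a log axis for 8 retinoid genes in each comparison, with intervals from the deposited bounds; filled points mark bounds that were apart, and dotted lines mark 2-fold. Dhrs3 and Cyp26b1 lie beyond the lower 2-fold line at 6 h, at 0.217 and 0.332, and the intervals of Crabp2, Stra6 and Rarb span equal levels in every panel.

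Of the 9 members, 5 passed the filter on low values (Dhrs3, Cyp26b1, Rara, Rarg and Rxra). At 1 h against the control the 2-fold call took 0 of these 5 as higher and 0 as lower, beside 1.31% and 0.831% of all genes tested. Bounds were apart for 1 higher, Dhrs3, and 1 lower, Rara, beside 14.9% and 20.1% of all genes, shares too large for 1 member in each direction to stand out. At 6 h against the control, 1 of 5 was at least 2-fold lower, Dhrs3, beside 0.631% of all genes, and 0 were at least 2-fold higher, beside 1.08%. That is the comparison in which Dhrs3 had been noticed. Bounds were apart for 3 lower, Dhrs3, Cyp26b1 and Rarg, beside 19.2% of all genes, and for 0 higher, beside 11.2%. Cyp26b1 passed the filter only through its 1 h and control libraries, and Dhrs3 was chosen on this comparison, so nothing is read from these counts. At 6 h against 1 h, 1 of 5 was at least 2-fold lower, Dhrs3, beside 1.7% of all genes, and 0 were higher, beside 1.47%, with bounds apart for 3 lower and 1 higher, beside 23% and 19.7%. These comparisons share libraries and are not independent. The median log2 difference of the 5 members was -0.10 at 1 h, beside -0.02 for all genes, and -0.57 at 6 h, beside -0.06. The 6 h median is the value of Rarg, and the 5 include Dhrs3 and Cyp26b1, so nothing is read from it either.

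The rest of the pathway was read from 7 wider lists with 88 different genes, all of which had a row in the files. Of these, 17 were listed at 0 in every library and 44 passed the filter. At 1 h against the control 0 of the 44 were at least 2-fold higher and 0 lower, beside 1.31% and 0.831% of all genes. At 6 h against the control 1 was at least 2-fold lower, Pdk4, beside 0.631% of all genes, and 0 were higher, beside 1.08%. At 6 h against 1 h 1 was at least 2-fold higher, Ppard, beside 1.47%, and 2 were lower, Pdk4 and Meis2, beside 1.7%. At such shares these counts do not set the 44 apart from other genes, and a count of 0 in a single list says little. Their median log2 difference was -0.02 at 1 h and -0.08 at 6 h against the control.

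Among the enzymes that oxidise retinol or retinal, Aldh1a3, which lies below the filter, was at least 2-fold higher at 6 h. Aldh1a3, a retinal dehydrogenase gene, had 0.194 FPKM (0.104 to 0.286) after 1 h and 2.05 FPKM (1.66 to 2.43) after 6 h, against 0.305 FPKM (0.195 to 0.424) in the control. The 6 h library stood alone, with bounds apart from both others, and the ratio to the control was 6.70 (4.35 to 10.3), a log2 difference of 1.22. It averaged 0.848 FPKM and is therefore not among the 44. Its relatives were low, Aldh1a1 at 0.787 FPKM after 1 h and 0.685 FPKM after 6 h, against 1.16 FPKM in the control, and Aldh1a2 at 0.0215 FPKM after 1 h and listed at 0 at 6 h and in the control. These 2 were named after their values were seen.

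Of 17 oxidising enzymes 5 passed the filter. Rdh10, the retinol dehydrogenase that acts opposite to DHRS3, had 9.27 FPKM after 1 h and 9.39 FPKM after 6 h, against 7.56 FPKM in the control. Its ratio to the control was 1.23 (1.03 to 1.45) at 1 h and 1.24 (1.05 to 1.47) at 6 h, with bounds that overlapped. Rdh5, another retinol dehydrogenase, had 5.03 FPKM after 1 h and 5.95 FPKM after 6 h, against 3.52 FPKM in the control, with bounds apart at 6 h. The alcohol dehydrogenase genes were more abundant. Adh7 had 22.5 FPKM after 1 h and 42.6 FPKM after 6 h, against 38.9 FPKM in the control, so that the 1 h library was the low one, and Adh5 had 63.7 and 63.8 FPKM after 1 h and 6 h, against 70.5 FPKM in the control. For Adh5 in every library, and for Adh7 at 6 h and in the control, the FPKM lay above its own deposited bounds, so these bounds are no guide to precision.

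Other enzymes were listed as retinal reductases, and whether each of them, Dhrs7b and Akr1b3 included, acts on retinal was not shown here. Of 8, 7 passed the filter and 0 were at least 2-fold apart in any comparison, beside 0.631% to 1.7% of all genes in a given direction. At such shares a count of 0 among 7 says little. Bounds were apart for 0 higher and 1 lower at 1 h and for 0 in either direction at 6 h against the control. Between the times they were apart for 1 higher and 2 lower. The same shares over all genes were 14.9% and 20.1%, 11.2% and 19.2%, and 19.7% and 23%. Rdh11 had 16.3 FPKM after 1 h and 16.0 FPKM after 6 h, against 16.9 FPKM in the control. Dhrs4 had 16.2 FPKM after 1 h and 15.5 FPKM after 6 h, against 17.1 FPKM in the control. Dhrs7b and Akr1b3, with 17.0 and 28.7 FPKM after 6 h, against 19.8 and 27.3 FPKM in the control, also had bounds that overlapped those of the control. The other CYP26 genes were scarce: Cyp26a1 had 0.0562 FPKM after 1 h, 0.0557 FPKM after 6 h and 0.0495 FPKM in the control, and Cyp26c1 was listed at 0 at 1 h with 0.0325 FPKM after 6 h and 0.115 FPKM in the control.

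Among retinoid carriers Fabp5, a fatty acid binding protein that also binds retinoic acid, was by far the most abundant, at 171 FPKM after 1 h and at 6 h, against 176 FPKM in the control. Retsat, which saturates retinol, had 16.5 FPKM after 1 h and 16.7 FPKM after 6 h, against 17.3 FPKM in the control. Neither had bounds apart in any pair of libraries. The retinol-binding protein gene Rbp7 had at most 0.113 FPKM. Of the 13 genes of this list 6 were listed at 0 throughout, and 2 passed the filter.

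The partner receptors of RXR gave a mixed picture, with 9 of 13 listed genes above the filter. Rxrb, the second RXR gene, had 15.6 FPKM after 1 h and 15.9 FPKM after 6 h, against 16.2 FPKM in the control, while Rxrg had at most 0.0228 FPKM. Vdr, the vitamin D receptor gene, had 28.5 FPKM after 1 h and 35.2 FPKM after 6 h, against 21.0 FPKM in the control, with a ratio of 1.68 (1.56 to 1.81) at 6 h. Both washout libraries lay above the control with bounds apart. Ppard, a fatty acid sensing receptor gene, had 20.0 FPKM after 1 h and 41.2 FPKM after 6 h, against 36.6 FPKM in the control. Its 1 h library was the low one, and the ratio of 6 h to 1 h was 2.06 (1.88 to 2.26). Nr2f6 had 45.7 FPKM after 1 h and 48.8 FPKM after 6 h, against 58.5 FPKM in the control, and Nr1h2 had 19.7 FPKM after 1 h and 18.6 FPKM after 6 h, against 22.8 FPKM in the control. The FPKM of Nr2f6 lay above its own bounds in every library.

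All 13 receptor cofactor genes passed the filter, and 0 were at least 2-fold apart in any comparison, beside 0.631% to 1.7% of all genes in a given direction. Bounds were apart for 4 higher and 1 lower at 1 h and for 2 higher and 3 lower at 6 h against the control, and for 1 higher and 6 lower at 6 h against 1 h. The same shares over all genes were 14.9% and 20.1%, 11.2% and 19.2%, and 19.7% and 23%. The corepressor gene Ncor1 had 24.6 FPKM after 1 h and 18.9 FPKM after 6 h, against 26.2 FPKM in the control, a ratio of 0.722 (0.683 to 0.763) at 6 h. Its 6 h library was the lowest, with bounds apart from both others. Hdac3 and Tbl1x, further corepressor components, had 47.0 and 31.0 FPKM after 6 h, against 53.1 and 34.3 FPKM in the control, all above their own bounds.

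Genes known to respond to retinoic acid in other cells did not share a direction. Of 24 listed, 8 were listed at 0 throughout and 10 passed the filter, with bounds apart at 6 h against the control for 2 higher and 4 lower, beside 11.2% and 19.2% of all genes. Pdk4, which encodes a kinase that inhibits pyruvate dehydrogenase, had 27.9 FPKM after 1 h and 10.7 FPKM after 6 h, against 27.9 FPKM in the control, a ratio of 0.383 (0.343 to 0.429) at 6 h. Meis2, a homeobox gene, had 7.33 FPKM after 1 h and 3.15 FPKM after 6 h, against 4.73 FPKM in the control. It was highest at 1 h and lowest at 6 h, as Dhrs3 was, with a ratio of 0.429 (0.370 to 0.498) between 6 h and 1 h. Rai14 went the other way at 6 h, with 34.9 FPKM after 1 h and 48.8 FPKM after 6 h, against 33.4 FPKM in the control. Tshz1 was lower in both washout libraries, at 9.52 FPKM after 1 h and 11.5 FPKM after 6 h, against 18.4 FPKM in the control. Stra13 and Nr2f2 had 24.9 and 10.5 FPKM after 6 h, against 28.3 and 10.8 FPKM in the control, and the FPKM of Stra13 lay above its own bounds in every library. This Stra13 row is not Bhlhe40, a retinoic acid responsive gene that has also been called Stra13. Bhlhe40 was in none of the lists or their counts, and its log2 difference from the control was 1.53 at 1 h and 0.72 at 6 h.

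**Figure D3:**
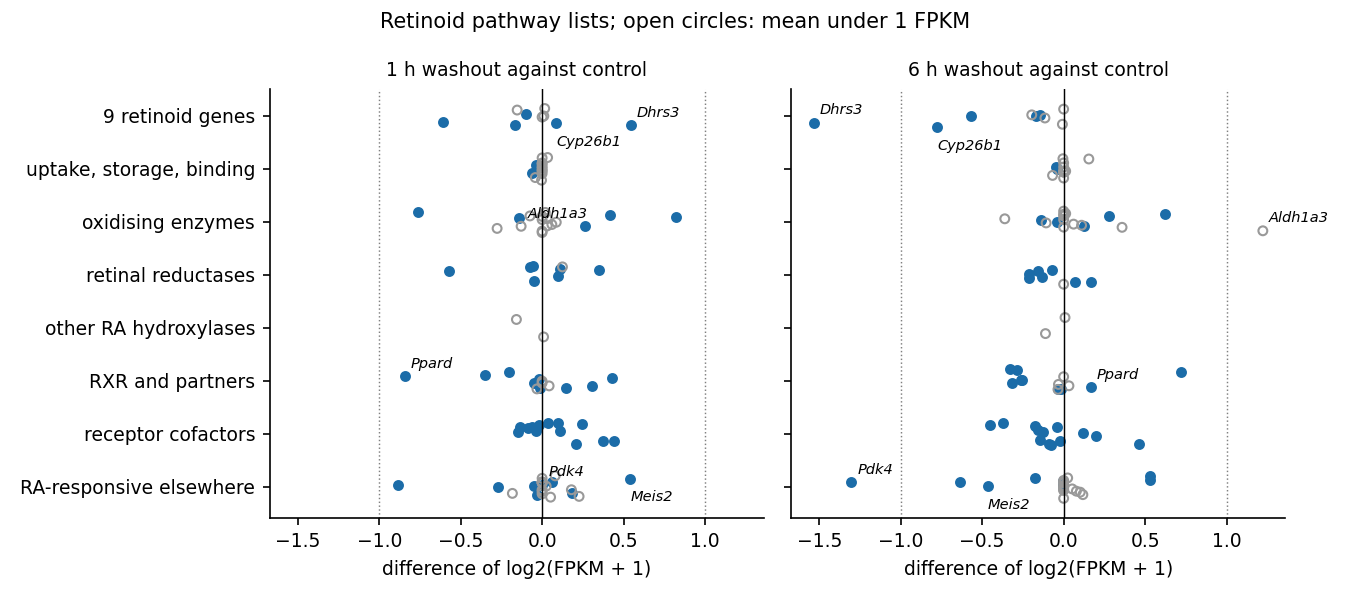
Difference of log2(FPKM + 1) from the control at 1 h (left) and 6 h (right) for every gene of the 9 members and of the 7 wider lists, 1 point per gene, each drawn in the first list that holds it; open circles average under 1 FPKM and dotted lines mark 2-fold. At 6 h Dhrs3 (-1.53) and Pdk4 (-1.31) lie past the lower line and Aldh1a3 (1.22) past the upper one.

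The genes most like Dhrs3 were sought among 10361 others above 0 in all libraries, as those with the smallest distance over both log2 differences from the control, a likeness that rests on 3 libraries. Fgf7, a growth factor gene, was nearest at a distance of 0.18, with 31.4 FPKM after 1 h and 8.11 FPKM after 6 h, against 22.7 FPKM in the control. Gas1 followed at 0.39, with 46.9 FPKM after 1 h and 15.1 FPKM after 6 h, against 41.5 FPKM in the control. Cdon, at 0.46, had 15.8 FPKM after 1 h and 4.77 FPKM after 6 h, against 11.3 FPKM in the control. All 3 were highest at 1 h and lowest at 6 h, an order that choosing by likeness to Dhrs3 favours and that is no separate result. Filip1l, at 0.47, had 46.6 FPKM after 1 h and 13.4 FPKM after 6 h, against 29.4 FPKM in the control. These first 4 genes had bounds apart in every pair. Atoh8, at 0.51, had 12.2 FPKM after 1 h and 4.08 FPKM after 6 h, against 11.2 FPKM in the control, and its bounds at 1 h overlapped those of the control. A value above the control at 1 h and below it at 6 h, with bounds apart at both, was seen in 320 of the 10464 genes, or 3.06%.

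**Figure D4:**
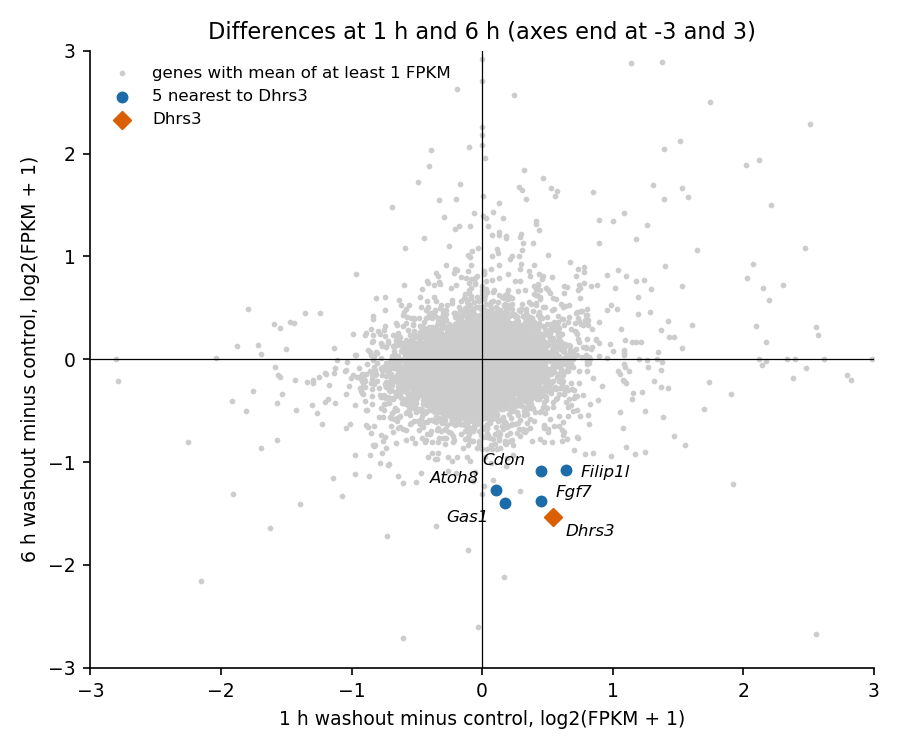
Difference of log2(FPKM + 1) from the control at 6 h against that at 1 h, 1 point per gene averaging 1 FPKM or more; 88 genes beyond 3 on either axis are outside the frame. Dhrs3 (diamond) and its 5 nearest genes sit below the cloud at 6 h and right of its centre at 1 h.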

How the data were processed

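Per the labels' protocols, polyadenylated RNA was made into barcoded Illumina libraries. The authors deposited FPKM values with 95% bounds per gene; TopHat, Cufflinks and FastQC with mm9 are named per the submitters' processing notes, whose versions, strand setting and annotation were not given in the sources used here. The series-wide table had equal values in all 23807 rows.

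FPKM and bounds of rows with 1 symbol were summed (Python 3.11.15, pandas 2.3.3). Printed locus starts are the deposited starts plus 1, since end minus start matched the gene length of RefSeq GRCm38.p6 for 9264 of 21480 symbols. Bounds are apart when they do not overlap, and the interval of a ratio can exclude equal levels where the bounds still overlap. FPKM lay outside its own bounds for 19.9%, 20.0% and 21.5% of rows above 1 FPKM at 1 h, at 6 h and in the control. Fragment numbers are Poisson counts with the relative width of the bounds, and by them the 1 h and 6 h libraries were 0.897 and 0.910 times as deep as the control. Whole fragments were not recovered, so no count test was run. Alternatives were pseudocounts of 0.1 and 5, other filters, scalings, thresholds and row choices.

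Members, lists and thresholds were chosen with earlier results of these data known. From each wider list the text names genes at least 2-fold apart and up to 4 others with the highest average; some of these are not reported here.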

Additional observations from a re-analysis of the deposited data

Results flagged for a closer look

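Dhrs3 was above the control at 1 h and below it at 6 h with bounds apart at both times, and the log2 difference of 6 h from 1 h was -2.08. The same held for Meis2 (-1.01) and for Ncoa7 (-0.81), a coactivator gene with 5.53 FPKM after 1 h and 2.73 FPKM after 6 h, against 3.82 FPKM in the control. In the opposite order, below the control at 1 h and above it at 6 h, were Ppard (1.01) and Meis1 (0.80), a homeobox gene with 7.86 FPKM after 1 h and 14.4 FPKM after 6 h, against 9.67 FPKM in the control. Ncoa7 and Meis1 were named for this pattern after their values were seen. Among all genes tested 3.06% had the first order and 2.19% the second. Both directions are read against the same control library, each rests on 1 library per group, and the difference between the times was not tested.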

How the results depend on the processing

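Results without a replicate depend on the pseudocount and on the filter. For Dhrs3 the log2 difference was -2.11 with a pseudocount of 0.1 and -0.73 with 5 at 6 h against the control, and -2.73 and -1.08 at 6 h against 1 h. Members at least 2-fold lower numbered 2 with a pseudocount of 0.1, 0 when an average of 5 FPKM was required and 2 at a 1.5-fold threshold, in both comparisons with the 6 h library. With a pseudocount of 5 they numbered 0 at 6 h against the control. At 1 h a 1.5-fold threshold gave 1 lower member. Both rescalings, the table of the whole series, taking 1 row per symbol, leaving out low-data rows and using no filter changed no member count. Of 117 other member values under the alternatives, 113 stayed within the bounds' spread, and the 4 that moved more were Cyp26b1 at 6 h under both pseudocounts. Only the pseudocounts and the rescalings altered such a value at all. The 113 therefore include many that a filter or threshold could not move, and say little about robustness. Counts over all genes moved by over 1.5 times as follows. At 1 h, 137 higher became 90 with a pseudocount of 5 and 318 at 1.5-fold, and 87 lower became 143 with 0.1, 57 with 5 and 366 at 1.5-fold. At 6 h against the control, 113 higher became 69 and 245, and 66 lower became 116, 40 and 290, in the same settings. Between the times, 154 higher became 78 and 491, and 178 lower became 274, 94 and 583. No paired analysis was possible because each group was 1 library. Low members (Stra6, Crabp2, Rarb) rest on 7 to 20 fragments, and Crabp1 on none listed.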

Other observations

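Some enzymes outside the named genes differed in 1 library, and were picked after their values were seen. Dhrs9, a short-chain dehydrogenase gene whose human product oxidises retinol, had 4.78 FPKM after 1 h and 2.18 FPKM after 6 h, against 2.27 FPKM in the control, a ratio of 2.10 (1.65 to 2.68) at 1 h with bounds apart. Rdh13 had 5.84 FPKM after 1 h and 10.4 FPKM after 6 h, against 9.17 FPKM in the control, a ratio of 0.637 (0.543 to 0.749) at 1 h. Rdh8 was listed at 0.282 FPKM after 6 h and at 0 at 1 h and in the control.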
